A study of Mus musculus with 6 samples.

Results

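The genes described here are 3 Janus kinases, Jak1, Jak2 and Tyk2, and 6 STAT transcription factors, Stat2, Stat3, Stat4, Stat5a, Stat5b and Stat6, in BV-2 cells with and without lipopolysaccharide (LPS). Each of these 9 genes, of 22180 genes with a row named for them alone, had exactly 1 row in the deposited table, so no choice between rows was needed. BV-2 cells are an established line of mouse microglia, the macrophages of the brain, made immortal by retroviral transfer of the oncogenes raf and myc. RNA was hybridised to 6 whole-transcript arrays, 3 from resting control cells and 3 from cells given LPS from Escherichia coli O111:B4 at 1 µg/mL, with a labelled time of 24 h. When the control cells were harvested is not given in the sources used here. All arrays come from this 1 transformed line grown in medium with reduced serum, and the labels do not say whether the replicates were separate cultures, so p-values reflect only how these arrays differ among themselves, a spread that may be technical.

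Janus kinases sit on the inner side of cytokine receptors and phosphorylate them once a ligand has brought the receptor chains together. STAT proteins dock on the phosphorylated receptor, are phosphorylated in turn, pair up and enter the nucleus to bind DNA. In microglia and macrophages this route carries the signals of interferons, interleukin 6, interleukin 10, interleukin 4 and colony-stimulating factors, and interferon released after LPS is known to feed back through it. STAT activity is set mainly by phosphorylation, which these arrays do not measure: the values below are RNA levels.

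The DNA just before the start of the genes was searched for the motifs that STAT complexes are known to bind. These were the GAS motif (TTCNNNGAA), bound by STAT dimers, and the core of the interferon-stimulated response element, ISRE (GAAA, any 2 bases, then GAAA), bound by ISGF3, a complex that holds STAT2 and its partner IRF9. Windows ran from 250 bases before to 50 bases after each RefSeq start (GRCm38.p6), both strands were read, all 9 genes had at least 1 window, and 12 windows were searched in all. The 3 upstream stretches below are shown because the first carries an ISRE core and belongs to the gene whose LPS arrays were least alike, the second belongs to the gene with the largest change, and the third carries an ISRE core in a gene whose signal stayed at background. All are written 5′ to 3′ on the + strand, which is the strand of each gene, and capitals mark the motif match.
Stat2 (chr10:128270248-128270497): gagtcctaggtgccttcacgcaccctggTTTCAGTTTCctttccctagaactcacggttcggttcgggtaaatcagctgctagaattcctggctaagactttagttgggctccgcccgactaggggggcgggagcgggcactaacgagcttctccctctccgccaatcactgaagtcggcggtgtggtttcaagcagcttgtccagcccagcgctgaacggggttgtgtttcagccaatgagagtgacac
Jak2 (chr19:29251553-29251802): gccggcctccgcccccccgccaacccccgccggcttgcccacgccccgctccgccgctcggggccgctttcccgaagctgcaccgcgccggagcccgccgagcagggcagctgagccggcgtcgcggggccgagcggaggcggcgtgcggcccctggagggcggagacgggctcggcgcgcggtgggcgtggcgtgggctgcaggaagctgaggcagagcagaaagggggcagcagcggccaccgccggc
Stat4, second start (chr1:52007990-52008239): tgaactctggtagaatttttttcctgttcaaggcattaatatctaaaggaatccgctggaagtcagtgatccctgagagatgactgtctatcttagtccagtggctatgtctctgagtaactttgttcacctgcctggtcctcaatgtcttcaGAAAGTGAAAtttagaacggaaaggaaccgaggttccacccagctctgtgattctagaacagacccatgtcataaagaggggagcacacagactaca
The ISRE core of Stat2 lay at bases -222 to -213 from the start and read TTTCAGTTTC, which is the motif on the opposite strand. That of Stat4 lay at -97 to -88 from the second of its 2 starts and read GAAAGTGAAA. No window of the 9 genes held a GAS match, and only these 2 windows held an ISRE core. Over all 32851 windows of this length 8.298% held the GAS motif and 3.443% the ISRE core. A match is a run of letters and not a measured binding site, and windows without one say nothing about sites further away.

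Values are log2 expression per transcript cluster, the group of probes that stands for 1 transcription unit, so a difference of 1 is a doubling. As a guide to background, the 95th percentile of 1443 rows of chemosensory receptor genes (smell, pheromone and taste) was 3.08, and 8 of the 9 genes had a mean above it. All 12 microglia and macrophage markers examined lay above the guide, with mean levels of the list between 7.91 and 8.51 over the arrays, while 0 of 6 astrocyte, 0 of 5 oligodendrocyte and 0 of 5 lymphocyte markers did. Of other cells' markers above it there were 2 of 6 for neurons, Rbfox3 and Syn1, and 1 of 5 for endothelium, Flt1. Of the arrays, 2 stood apart. Control replicate 2 minus the mean of the other controls had a median of -0.39 over rows at levels of 5 to 7 and -0.62 at 7 to 9, and LPS replicate 3 differed from the other LPS arrays by a median of 0.13 and -0.02 in these ranges. Control replicate 2 was the lowest control array for 8 of the 9 genes, all but Stat4, as it was for 50.6% of all rows and 59.7% of rows above the guide. Results that rest on either array are given with and without it. In RNA from bulk cultures, a change in RNA per cell and a change in the share of cells that hold the RNA cannot be told apart.

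None of the 9 genes passed limma's test at an adjusted p under 0.05, where 80 of all 41345 rows (0.193%) were called higher and 0 lower. This split depended on the arrays that stand apart: 53 rows were higher and 14 lower without control replicate 2, 76 and 6 without LPS replicate 3, and 152 and 67 without both. At an unadjusted p under 0.05, 3 of the 9 were higher, Jak2, Tyk2 and Stat2, against 4.98% of all rows and 9.29% of rows above the background guide, and 0 were lower, against 1.4% of all rows and 1.71% above the guide. The same 3 genes had every LPS array above every control array, which 7.74% of all rows and 12.1% of rows above the guide did. In 0 of the 9 did every LPS array lie below every control array, which 3.48% of all rows and 2.26% of rows above the guide did. The median log2 fold change of the 9 genes was 0.42, beside 0.03 over all rows and 0.11 over rows above the guide. Without control replicate 2 the median of the 9 genes was 0.13, beside 0.02 over rows above the guide. That 0.13 is the value of Stat4, a gene under the guide. After quantile normalization the median of the 9 genes was 0.25, beside -0.03 over rows above the guide.

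**Figure D1:**
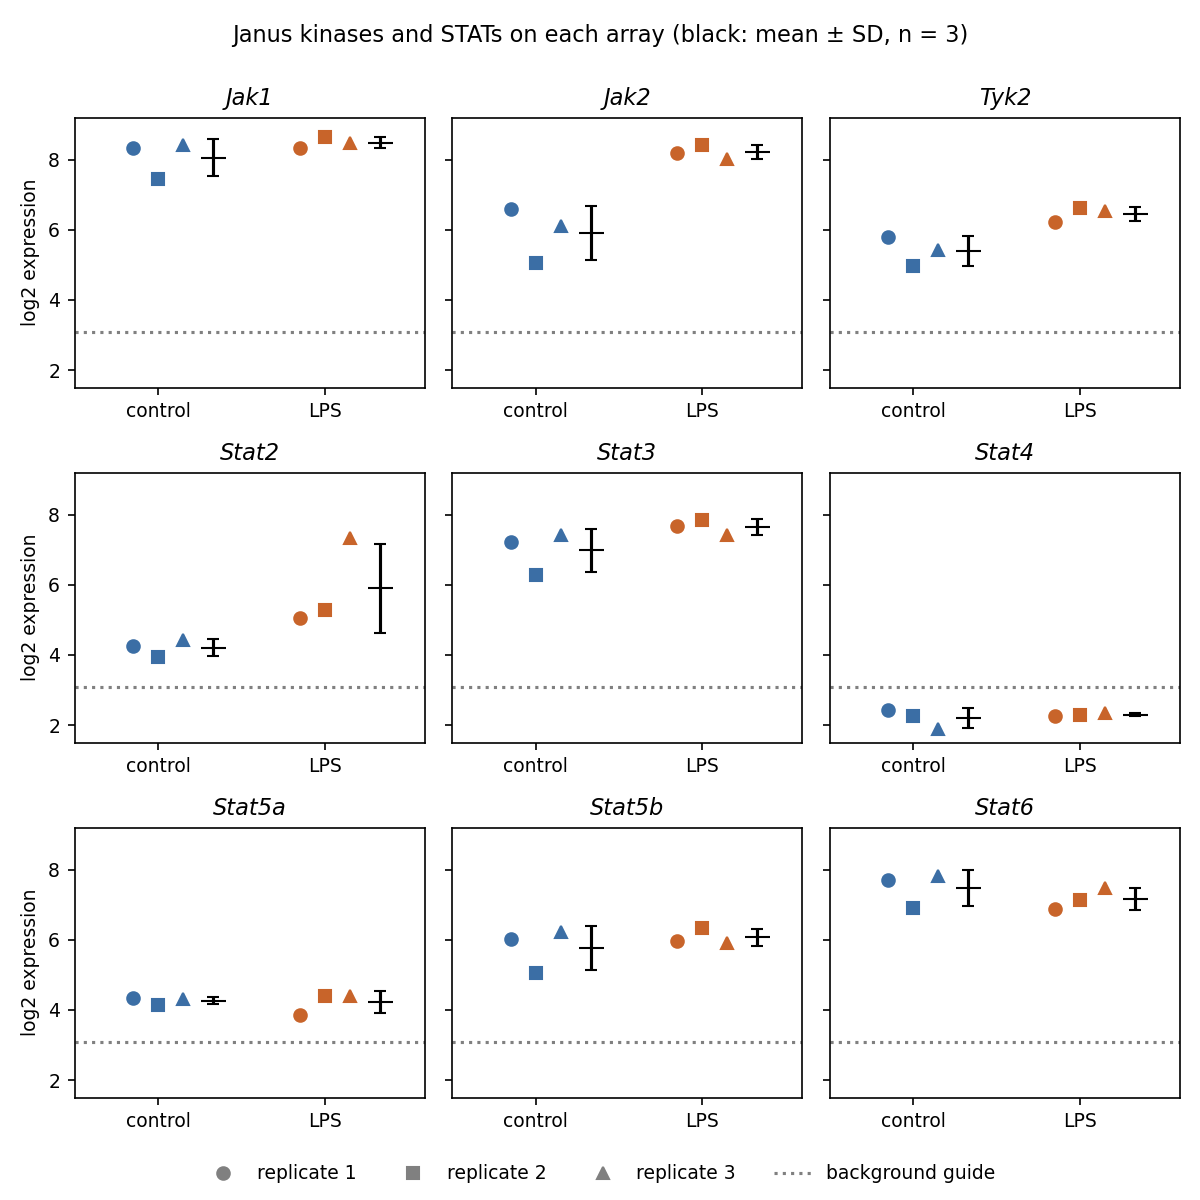
Log2 expression of each gene on each array, 3 control (blue) and 3 LPS (orange), with the replicate shown by the symbol, the mean ± SD in black (n = 3) and the background guide of 3.08 as a dotted line. The LPS arrays lie wholly above the controls for Jak2, Tyk2 and Stat2, Stat4 lies under the guide on every array, and levels are not compared between genes, whose probes differ.

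Jak2, the kinase of the receptors for interferon gamma and for granulocyte-macrophage colony-stimulating factor, had the largest difference between the groups. Its log2 expression was 6.58, 5.06 and 6.10 in control replicates 1 to 3 against 8.20, 8.42 and 8.02 in LPS replicates 1 to 3. The lowest LPS array thus lay well above the highest control, and the LPS arrays lay closer together than the controls. The means were 5.91 ± 0.78 and 8.21 ± 0.20 (SD, n = 3), which differ by 2.30 on the log2 scale (SE 0.38; adjusted p = 0.143 in limma), or 4.93-fold, with a 95% interval of 2.65 to 9.18 that is not adjusted for the number of rows. Of 22180 genes, 65 had a larger log2 fold change, and 162 of 41345 rows had a smaller p, so Jak2 was not among the 80 rows called. The gene passed when only 1 row per gene was tested (adjusted p = 0.0466) and when neither control replicate 2 nor LPS replicate 3 entered the fit (1.97, adjusted p = 0.0393), and its log2 fold change lay between 1.87 and 2.64 with any 1 array left out. In those leave-one-out fits its adjusted p in limma ran from 0.06 to 0.571, so it passed in none of them. With replicate number as a block the adjusted p was 0.436. Control replicate 2 minus the mean of the other controls was -1.28, the widest such gap among the 9 genes, and without it the log2 fold change was 1.87 (adjusted p = 0.06).

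Tyk2, a kinase of the interferon alpha and beta receptor, also had LPS arrays above all controls. Its values were 5.79, 4.95 and 5.43 in control arrays against 6.23, 6.61 and 6.54 under LPS, with means of 5.39 ± 0.42 and 6.46 ± 0.20 (SD, n = 3). The log2 fold change was 1.07 (SE 0.24, adjusted p = 0.315), or 2.09-fold with a 95% interval of 1.41 to 3.11, and it stayed between 0.80 and 1.26 under the 15 alternatives to the fit. Jak1, which works beside Tyk2 at the interferon alpha and beta receptor and at receptors of the interleukin 6 family, overlapped between the groups. It read 8.33, 7.44 and 8.40 in control arrays against 8.32, 8.63 and 8.49 under LPS. Only control replicate 2 stood off, and the log2 fold change of 0.42 (SE 0.28, adjusted p = 0.965, 95% interval -0.24 to 1.08) was 0.11 without it.

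Differences between 2 genes on the same array set aside any shift that both share there. For 6 pairs, chosen after their values were seen, the difference in log2 expression was taken on each array and compared between the groups with a two-sided exact permutation test, which cannot go below p = 0.1 with 3 against 3. Jak2 minus Jak1 was -1.75, -2.38 and -2.31 in control arrays against -0.12, -0.21 and -0.46 under LPS, a change of 1.88 (exact permutation p = 0.1, 0.15 adjusted over the 6 pairs). On this measure control replicate 2 no longer stood off, and the change in Jak2 exceeded that in Jak1 by 3.68-fold. Tyk2 minus Jak1 went from -2.67 ± 0.27 to -2.02 ± 0.07 and Jak2 minus Tyk2 from 0.52 ± 0.36 to 1.76 ± 0.25 (SD, n = 3), each with no overlap and the same exact permutation p. Since the pairs were chosen with their values known and 3 against 3 cannot pass the threshold, these p-values support no order among the kinases, and the differences are a description.

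**Figure D2:**
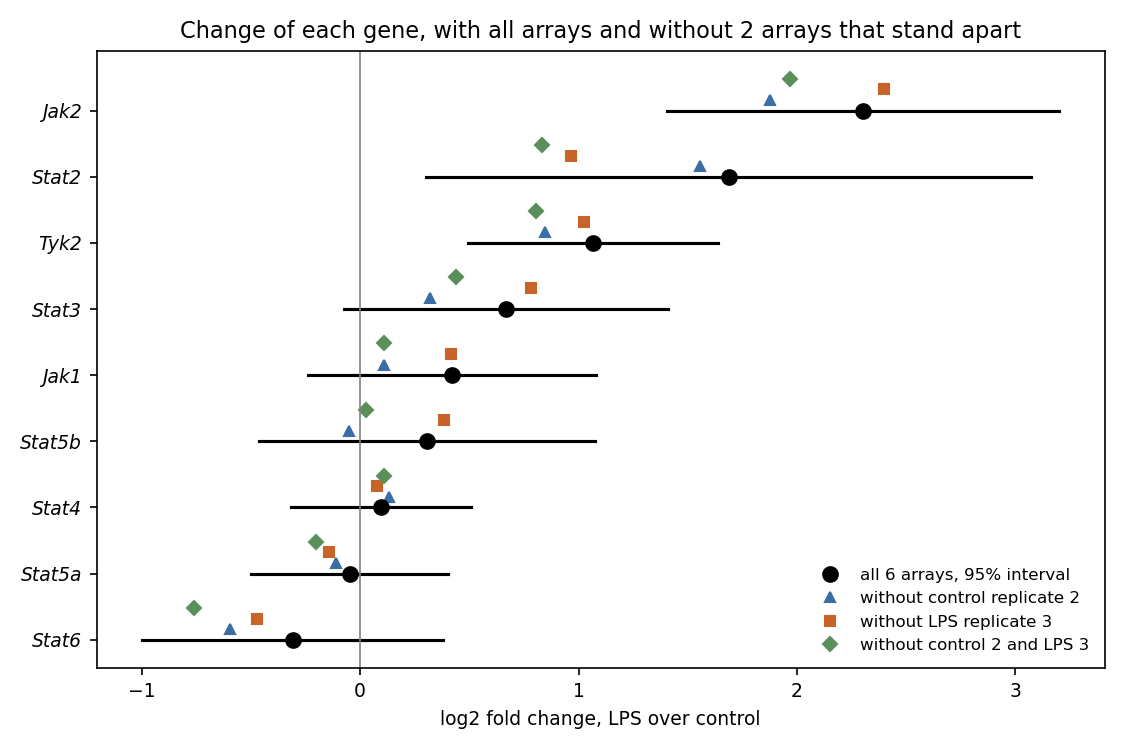
Log2 fold change of LPS over control for each gene from all 6 arrays (black, with the unadjusted 95% interval) and without control replicate 2 (blue triangles), without LPS replicate 3 (orange squares) or without both (green diamonds). Jak2 stays between 1.87 and 2.40 in these fits, Stat2 is at 1.69 with all arrays and 0.96 without LPS replicate 3, and the estimate of Stat5b without control replicate 2 is below 0.

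Stat2, the STAT of type I interferon signalling, was higher on every LPS array but by very different amounts. Its log2 expression was 4.25, 3.95 and 4.42 in control arrays against 5.06, 5.28 and 7.34 in LPS replicates 1 to 3. LPS replicates 1 and 2 lay close together, 0.85 and 1.08 above the control mean. LPS replicate 3 lay 2.17 above the mean of LPS replicates 1 and 2. The groups had means of 4.21 ± 0.24 and 5.89 ± 1.26 (SD, n = 3), and the log2 fold change of 1.69 (SE 0.58, adjusted p = 0.644, 95% interval 0.30 to 3.07) was 0.96 without LPS replicate 3 (adjusted p = 0.271), or 1.95-fold in place of 3.22-fold. No other gene of the 9 showed this: in the other 8 LPS replicate 3 differed from the mean of the other LPS arrays by -0.35 for Stat3 to 0.49 for Stat6.

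Genes that work with Stat2 or downstream of it were high on the same array. Irf9, which joins STAT2 in ISGF3, read 4.40, 4.83 and 4.80 in control arrays against 5.72, 5.64 and 7.01 under LPS, a log2 fold change of 1.44 (standard error 0.38, adjusted p = 0.425) that was 1.00 without LPS replicate 3. It was named after its values were seen. Of 16 measured ISGF3 target genes, 16 were highest in LPS replicate 3 among the LPS arrays, as were 48.5% of rows above the guide and 38.4% of all rows, and the median gap was 1.55 within a range of 0.22 to 2.70. All 12 microglia and macrophage markers were measured on the same arrays, 9 of them were highest in LPS replicate 3, and their median gap was 0.56. Their gaps ran from -0.07 to 1.58. Of 26 receptor genes 17 were highest in LPS replicate 3, with a median gap of 0.33. The receptor gaps ran from -0.24 to 2.75, the largest for Csf2ra. High values on this array were thus not limited to Stat2 and its partners. The part that other differences of this array have in the values of Stat2 was not tested.

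**Figure D3:**
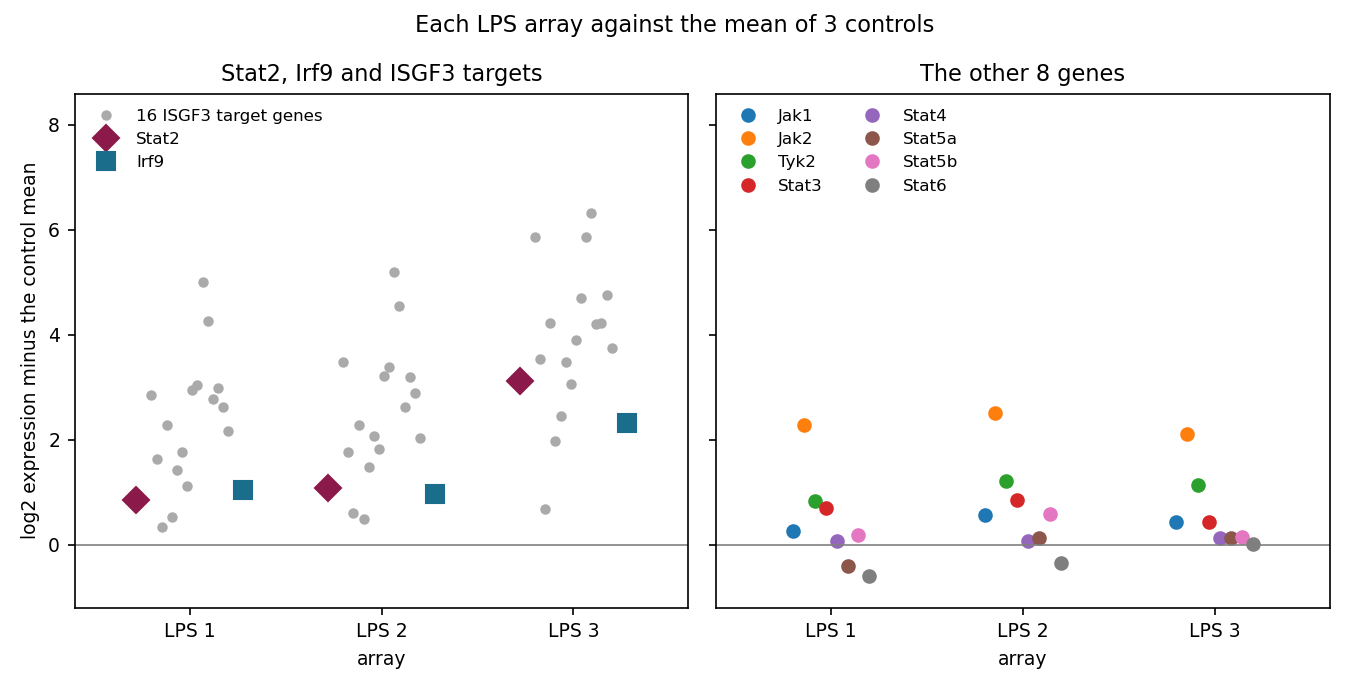
Log2 expression on each LPS array minus the mean of the 3 controls, on the left for Stat2, Irf9 and 16 ISGF3 target genes (grey) and on the right for the other 8 genes. Stat2 lies 3.13 above the control mean in LPS replicate 3 and 0.85 and 1.08 above it in the others, and the genes on the right keep to a narrow range over the arrays.

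The ISGF3 targets, genes that encode antiviral proteins, had a median log2 fold change of 3.07, or 2.49 without LPS replicate 3. Of 16 targets 5 rose and 11 did not pass, beside 0.193% of all rows and 0.404% of rows above the guide called higher. Among those that rose were the antiviral enzyme Rsad2 (5.36, SE 0.24, adjusted p = 0.00123), its neighbour Cmpk2 (5.04, SE 0.55, adjusted p = 0.0366) and Oasl2 (3.72, SE 0.44, adjusted p = 0.0444), and Oasl1 passed as well. Without LPS replicate 3 the log2 fold change of Cmpk2 was 4.41 (adjusted p = 0.014). Rtp4 also rose (adjusted p = 0.0203), with measured means of 2.99 and 6.47, but all 3 of its control arrays lay under the background guide, and with the controls set at the guide it was at least 10.4-fold higher under LPS. In 15 of 16 every LPS array lay above every control, Ifit3 being the exception at 0.54 (SE 0.24), against 7.74% of all rows and 12.1% of rows above the guide. Leaving out LPS replicate 3 gave 11 called targets, and leaving out control replicate 2 gave 2, Rsad2 and Oasl1. Leaving out control replicate 1, control replicate 3, LPS replicate 1 or LPS replicate 2 gave 1 each time, Rsad2. Of 13 targets with a RefSeq window, 6 (46.2%) held an ISRE core, against 3.993% of all genes with a window. They were Ifit1, Ifit3, Isg15, Oas1a, Oas3 and Rsad2, and the expression of Oas1a was not analysed here. The list was made of genes taken as targets of ISGF3, which binds this motif. A high share of matches therefore largely follows from the choice and is no separate result.

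Stat3, the STAT of interleukin 6 and interleukin 10, had groups that nearly separated. The controls read 7.23, 6.29 and 7.42 and the LPS replicates 7.68, 7.84 and 7.41, so that LPS replicate 3 lay just under control replicate 3. The log2 fold change was 0.67 (SE 0.31, adjusted p = 0.848, 95% interval -0.07 to 1.41) and 0.32 without control replicate 2, which differed from the mean of the other controls by -1.04. Interleukin 6, a ligand that acts through STAT3, had measured means of 1.91 ± 0.29 and 6.92 ± 0.22 (SD, n = 3) and rose (adjusted p = 0.000978). All 3 of its control arrays lay under the background guide, so only a bound can be given: with the controls set at the guide, Il6 was at least 14.3-fold higher under LPS. Its receptor chain Il6ra, singled out after its values were seen, read 6.70, 6.72 and 6.93 in control arrays against 4.88, 5.16 and 6.80 under LPS. Here again LPS replicate 3 departed from the others: the log2 fold change of -1.17 (SE 0.48, adjusted p = 0.763) was -1.76 without it (SE 0.18, adjusted p = 0.0443), and Il6ra then passed as lower.

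The median log2 fold change of 14 STAT3 target genes was 0.67. Of these, 2 rose and 12 did not pass, beside 0.193% of all rows and 0.404% of rows above the guide called higher. The 2 that rose were Lcn2, which encodes a siderophore-binding protein (5.95, SE 0.13, adjusted p = 6.0e-05), and Bcl3, a nuclear partner of NF-kappaB (2.18, SE 0.15, adjusted p = 0.00539). Both are also known as NF-kappaB targets. Bcl3 missed the threshold without LPS replicate 2 (adjusted p = 0.0596). Socs3, the feedback inhibitor of interleukin 6 signalling that STAT3 induces, read 3.81, 3.63 and 4.00 in control arrays against 4.76, 5.01 and 4.69 under LPS. Its LPS arrays lay above all controls and close together, with a log2 fold change of 1.00 (standard error 0.16, adjusted p = 0.143), and it was named after its values were seen. In contrast to Stat2, neither Stat3 nor Socs3 was highest in LPS replicate 3. Of the 14 STAT3 targets 4 were, beside 48.5% of rows above the guide and 38.4% of all rows. Gaps of the 14 to the mean of the other LPS arrays ran from -0.63 to 1.58, the largest for Myc, with a median of 0.02.

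Stat5a and Stat5b, which serve colony-stimulating factors and growth hormone, are close relatives that lie beside each other and beside Stat3 on chromosome 11. Stat5a read 4.34, 4.15 and 4.31 in control arrays against 3.86, 4.39 and 4.41 under LPS, a log2 fold change of -0.05 (standard error 0.19, adjusted p = 0.996, 95% interval -0.50 to 0.40). Stat5b read 6.03, 5.05 and 6.22 in control arrays against 5.95, 6.35 and 5.92 under LPS, with 0.31 (SE 0.32, adjusted p = 0.996, 95% interval -0.46 to 1.08). The groups overlapped in both, and both signs turned when 1 array was left out: Stat5a had 0.13 without LPS replicate 1 and Stat5b -0.053 without control replicate 2. As the genes are alike in sequence and the probes are not given, the share of signal that each row takes from the other gene is unknown. Within arrays, Stat3 minus Stat5b was 1.19, 1.24 and 1.20 in control arrays against 1.73, 1.49 and 1.49 under LPS. This difference varied little among the controls, control replicate 2 included, and changed by 0.36 (exact permutation p = 0.1, 0.15 adjusted over the 6 pairs). Stat3 minus Stat5a changed by 0.71 (exact permutation p = 0.2, adjusted 0.24) and Stat5a minus Stat5b by -0.35 (p = 0.4, adjusted 0.4), both with overlap. None of 10 STAT5 target genes passed in limma, with 1 higher and 0 lower at an unadjusted p under 0.05, where 9.29% and 1.71% of rows above the guide stood. The 2 with the highest mean were Igf1, a growth factor, at -0.18 (SE 0.35), and the kinase gene Pim1, also on the STAT3 list, at 1.82 (SE 0.44, adjusted p = 0.361), or 1.28 without control replicate 2.

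Stat6, the STAT of interleukin 4 and interleukin 13, which is known for the alternative activation of macrophages, had the lowest log2 fold change of the 9 genes. Its values were 7.70, 6.90 and 7.82 in control arrays against 6.88, 7.13 and 7.49 under LPS. Control replicates 1 and 3 lay above all LPS arrays and control replicate 2 lay among them. The log2 fold change was -0.31 (SE 0.29, adjusted p = 0.996, 95% interval -0.997 to 0.38), or -0.60 without control replicate 2 (adjusted p = 0.486). None of 14 STAT6 target genes passed in limma, and at an unadjusted p under 0.05 there were 0 higher and 4 lower. The shares were 4.98% higher and 1.4% lower among all rows, and 9.29% and 1.71% among rows above the guide. The 4 were Arg1, Mrc1, Mgl2 and Ccl24, and the mean of Ccl24 lay under the guide. The list had a median of -0.12, and 7 of the 14 lay above the background guide. The mannose receptor gene Mrc1 read 8.98, 8.38 and 9.15 in control arrays against 7.46, 7.76 and 8.29 under LPS, wholly below (log2 fold change -0.9999, SE 0.29, adjusted p = 0.494). The arginase gene Arg1 read 10.23, 4.82 and 10.32 in control arrays against 4.90, 5.47 and 4.66 under LPS. Control replicate 2 thus sat with the LPS arrays, and the log2 fold change of -3.45 (SE 1.42, adjusted p = 0.765) was -5.27 without it (SE 0.26, adjusted p = 0.00458), when Arg1 passed as lower.

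Stat4, the STAT of interleukin 12 in lymphocytes, stayed under the background guide on all 6 arrays. Its values were 2.43, 2.27 and 1.89 in control arrays against 2.27, 2.28 and 2.34 under LPS, and the log2 fold change of 0.10 (SE 0.17, adjusted p = 0.996) therefore describes signal at the level of chemosensory receptor genes. The groups overlapped, and no change in Stat4 could be read at this level.

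The rest of the pathway was examined by role, and the lists share genes: Usp18 is both an inhibitor and an ISGF3 target, Socs3 both an inhibitor and a STAT3 target. Of 19 ligands 1 rose, Il6, and 18 did not pass, beside 0.193% of all rows and 0.404% of rows above the guide called higher. Above the background guide lay 4 of the 19. Interferon beta (Ifnb1) read between 1.81 and 2.02 on all 6 arrays, at background. None of 26 receptor genes passed in limma, with 3 higher and 1 lower at an unadjusted p under 0.05. Among all rows 4.98% were higher and 1.4% lower, and among rows above the guide 9.29% and 1.71%, so the receptors stood near the background. The 2 with the highest mean were Ifngr2, a chain of the interferon gamma receptor that binds JAK2, at 0.59 (SE 0.26, adjusted p = 0.819), and Il10rb, a chain of the interleukin 10 receptor that binds TYK2, at 0.45 (SE 0.20, adjusted p = 0.827). Ifnar2, a chain of the interferon alpha and beta receptor chosen here with its values known, read 7.75, 7.58 and 7.75 in control arrays against 8.21, 8.44 and 8.68 under LPS, without overlap (0.75, SE 0.17, adjusted p = 0.31).

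None of 21 inhibitors passed in limma, while 8 were higher and 0 lower at an unadjusted p under 0.05, beside 4.98% higher and 1.4% lower among all rows, and 9.29% and 1.71% among rows above the guide. The 2 with the highest mean were the phosphatase genes Ptprc, with 0.41 (SE 0.13, adjusted p = 0.586), and Ptpn6, with -0.03 (SE 0.25). Usp18, which blocks the interferon receptor chain IFNAR2 and was named after its values were seen, read 4.13, 3.50 and 3.88 in control arrays against 6.47, 6.72 and 8.59 under LPS. Like Stat2 it was highest in LPS replicate 3, and its log2 fold change of 3.43 (SE 0.55, adjusted p = 0.132) was 2.76 without that array (SE 0.23, adjusted p = 0.0276), when it passed. Among 10 cofactors 0 passed in limma, and 2 were higher and 0 lower at an unadjusted p under 0.05, against the same shares. The acetyltransferase genes Ep300 and Crebbp, the 2 with the highest mean, had 0.08 (SE 0.21) and 0.36 (SE 0.17). Over all lists, with each gene counted once, 8 of 122 genes rose, 0 fell and 114 did not pass. The shares called higher were 0.193% of all rows and 0.404% of rows above the guide, and 0 rows were called lower.

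**Figure D4:**
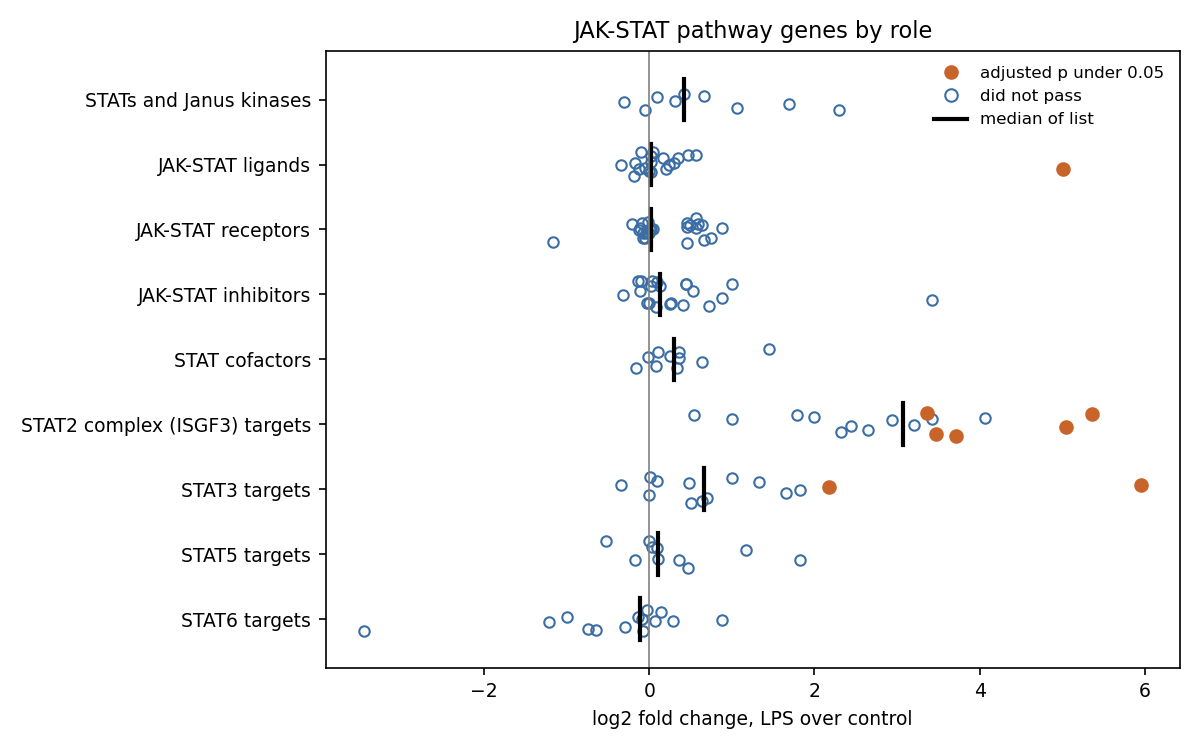
Log2 fold change of LPS over control for every measured gene, by role in the pathway, with filled orange points for genes at adjusted p under 0.05, open blue points for the rest and a black bar at the median of each list. The ISGF3 targets have the highest median, 3.07, and medians of ligands, receptors, inhibitors and STAT5 and STAT6 targets lie between -0.12 and 0.13. Only 4 of 19 ligands, 19 of 26 receptors and 7 of 14 STAT6 targets lay above the background guide. Genes under it have no readable change, so these medians do not show that the detected genes of a list were unchanged.

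The genes most like Jak2 and Stat2 were sought by the root mean square distance over the 6 arrays after each gene was centred on its own mean, among 10890 other genes above the background guide. Nearest to Jak2 were Sod2, which encodes mitochondrial superoxide dismutase (distance 0.26), Tnfaip3, an inhibitor of NF-kappaB signalling (0.27), and the kinase gene Ikbke (0.27). Tnfaip3 and Ikbke rose, Tnfaip3 by 2.39 (SE 0.28, adjusted p = 0.0455) and Ikbke by 2.17 (SE 0.22, adjusted p = 0.0297), while Sod2 had 1.99 (SE 0.31, adjusted p = 0.124). Both calls held without control replicate 2 and were lost without any other 1 array, with adjusted p from 0.107 to 0.282 for Tnfaip3 and from 0.0707 to 0.182 for Ikbke. In control replicate 2 these 3 genes were low as well, differing from the mean of the other controls by -0.56 for Ikbke to -0.95 for Sod2, beside -1.28 for Jak2. Nearest to Stat2 were the MHC class I gene H2-T23 (0.18), the interferon-inducible GTPase gene Irgm2 (0.20) and Slc31a2, a copper transporter gene (0.24). None of these 3 passed, and each was highest in LPS replicate 3, by 1.85, 2.21 and 1.63 over the other LPS arrays. These distances are over 6 arrays of 2 groups and describe likeness only. The genes were chosen on these same arrays. A like rise, a low control replicate 2 or a high LPS replicate 3 therefore largely follows from the choice and is no separate result.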

How the data were processed

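The authors deposited log2 expression values per transcript cluster, and the submitters' processing notes name Affymetrix Expression Console as the tool. Its version, background correction and normalization are not given in the sources used here, so folds from low signals may be biased, and the log2 scale was taken from their range, 0.84 to 12.0. Rows were named from a table of platform annotation, using rows with 1 symbol (23521 of 41345). Where a listed gene had more than 1 such row, as Socs3 and Pim1 did with 2, only the row of highest mean was used. Promoter windows came from RefSeq.

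LPS was compared with control with limma 3.58.1 in R 4.3.3 (lmFit, eBayes without a trend) on all rows, unfiltered, with Benjamini-Hochberg adjustment over 41345 rows. Errors of fold changes are moderated SE. The fit and the motif search were tested on simulated data. The number of arrays limits the precision. Members and lists were chosen with earlier results of these data known. Named were all 9 members, up to 4 called genes per list (for a list without a call, its 2 genes of highest mean), and the 3 genes nearest to each of the 2 members with the largest change. Alternatives were other scalings, filters, fits and arrays left out.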

Additional observations from a re-analysis of the deposited data

How the results depend on the processing

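Of 134 values of the 9 genes under 15 alternatives, 129 kept their sign and their side of the threshold. This count says little about stability. Some settings, such as 1 row per gene and the replicate block, leave each log2 fold change as it is, so no sign could turn there. Most of the 9 genes also lay far from the threshold. Jak2 passed with 1 row per gene (2.30) and without control replicate 2 and LPS replicate 3 together (1.97), which gives 1 called gene of the 9 in each. With any 1 array left out, Stat4 lay between -0.056 and 0.21, Stat5a between -0.14 and 0.13 and Stat5b between -0.053 and 0.53, so their signs turned. The number of rows called, 80, was between 15 and 82 with 1 array left out (15, 67 and 22 without control replicates 1, 2 and 3, and 27, 17 and 82 without LPS replicates 1, 2 and 3), 132 with array weights, and 219 without control replicate 2 and LPS replicate 3 together (152 higher, 67 lower). Without those 2 arrays 12 ISGF3 targets were called, 1 receptor (Il6ra), 1 inhibitor (Usp18), 1 STAT5 target (Pim2) and 1 STAT6 target (Arg1). With 1 array left out, called ISGF3 targets ran from 1 to 11, STAT3 targets from 1 to 2, and receptors, inhibitors and STAT6 targets from 0 to 1 each. Usp18 was also the 1 called inhibitor with 1 row per gene, with rows of 1 symbol only and without dim rows, where fewer rows are tested. The replicate block left 7 rows called, with 1 ISGF3 target and 1 STAT3 target, and neither Tnfaip3 (adjusted p = 0.249) nor Ikbke (0.275). The labels do not say whether same-numbered arrays were paired, and the main fit took them as unpaired. Deviations of same-numbered arrays from their group means correlated at 0.07, -0.26 and -0.22 over rows. With 3 arrays per group these deviations are not independent, so the correlations cannot settle the pairing. The cause of other changes was not tested. Each of the 9 genes had 1 row, so no other row could be tried. Genes under the background guide of 3.08, Stat4 among them, have no readable change.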
